A study of Mus musculus with 16 samples.

Results

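Expression of 47 interferon-stimulated effector genes was followed in hippocampal RNA of 4 mouse genotypes. The genes were taken by symbol from a deposited table of 55487 genes, and all 47 were found there and had enough reads to be tested. The list holds proteins that act against pathogens or process antigen, and also proteins of signalling control, cell death, RNA metabolism and chromatin. Several large interferon-induced families, among them Ifit, Oas and Gbp, and the IRF and STAT transcription factors were left out of it on purpose.

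Interferons are secreted proteins that signal through cell surface receptors, Janus kinases and STAT proteins. Type I interferon acts mainly through the interferon-stimulated response element (ISRE) in promoters, which a complex with Irf9 binds, while type II interferon acts mainly through the gamma-activated site (GAS). The genes switched on in this way encode ubiquitin-like modifiers, membrane proteins that hinder virus entry and release, nucleotide enzymes, RNA-binding proteins and subunits that adapt the proteasome to antigen processing. In the brain, microglia are known to express many of them in ageing and in neurodegeneration.

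The groups were wild type (WT), Ch25h knockout (CKO), PS19 tau transgenic (T) and PS19 on the Ch25h knockout (TCKO), with 4 libraries each, all from female mice of 40 weeks. PS19 mice carry human 1N4R tau with the P301S mutation, a cause of familial frontotemporal dementia, and the PrP promoter that drives it is not restricted to one cell type. Ch25h encodes cholesterol 25-hydroxylase, itself an interferon-induced enzyme. The right hippocampus was frozen after perfusion with PBS, and the labels do not say whether the libraries of a group came from different mice. The p-values below reflect only how much these libraries differ, which may be technical. A library is named below by its group and replicate number, as in T 3.

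Library totals ran from 15064309 estimated reads in CKO 4 to 34348284 in WT 2. Ch25h had 18, 25, 20 and 40 reads in the WT libraries and 300, 149, 154 and 133 in T, against 2, 0, 0 and 1 in CKO and 0, 1, 1 and 0 in TCKO, as the genotype labels state. Markers of hippocampal neurons were present in every library, with a summed level from 818 to 1643 CPM (reads scaled to a common library total). Choroid plexus markers summed to 7273 CPM in WT 1 and 7657 CPM in T 4 and to at most 417 CPM in the other libraries. Values without both of these libraries are given where they change a call.

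Promoter sequences show what a few of the members carry next to their transcription start. The set of RefSeq promoters used here (GRCm38.p6) holds 37 of the 47 members. Usp18, Rtp4, Tor3a, Mx1, Mx2, Ifi27, Ifi27l2a, Parp9, Parp10 and Parp14 are not in it, so the promoter counts and medians below leave them out. The ISRE core was searched as GAAANNGAAA and the GAS as TTCNNNGAA, on both strands, in the 250 bases before the start. Only exact matches were counted, so elements with a differing base or outside these bases would be missed. The 5 promoters below were chosen after the values in T against WT were seen. Isg15 (chr4:156200819-156201068, minus strand) and Tdrd7 (chr4:45972047-45972296, plus strand, 1 of 3 annotated starts) had the largest and the smallest change among the members with an ISRE match, and Ifi44 (chr3:151749911-151750160, minus strand) had the largest among those without. Rsad2 (chr12:26456453-26456702, minus strand) and Cmpk2 (chr12:26468965-26469214, plus strand) are neighbours that are compared again further on. Isg15 holds 3 overlapping ISRE matches, Rsad2 and Tdrd7 hold 1 each, and Cmpk2 and Ifi44 hold none. Capitals mark the ISRE matches, and each sequence is written in the direction of its gene.
Isg15: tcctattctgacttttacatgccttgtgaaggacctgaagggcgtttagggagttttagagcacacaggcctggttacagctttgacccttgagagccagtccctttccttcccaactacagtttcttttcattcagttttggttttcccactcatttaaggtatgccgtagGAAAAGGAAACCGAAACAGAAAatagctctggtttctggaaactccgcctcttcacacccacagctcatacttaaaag
Tdrd7: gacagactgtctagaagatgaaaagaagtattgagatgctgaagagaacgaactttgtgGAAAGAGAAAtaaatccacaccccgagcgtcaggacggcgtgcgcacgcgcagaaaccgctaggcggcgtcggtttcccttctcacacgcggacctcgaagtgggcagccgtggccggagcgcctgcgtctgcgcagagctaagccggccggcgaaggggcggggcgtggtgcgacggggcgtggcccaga
Ifi44: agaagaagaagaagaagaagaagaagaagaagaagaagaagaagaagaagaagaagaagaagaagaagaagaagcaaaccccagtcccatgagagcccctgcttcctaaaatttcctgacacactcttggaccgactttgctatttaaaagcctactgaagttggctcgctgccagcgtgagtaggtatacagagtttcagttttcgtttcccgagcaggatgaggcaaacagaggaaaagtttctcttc
Rsad2: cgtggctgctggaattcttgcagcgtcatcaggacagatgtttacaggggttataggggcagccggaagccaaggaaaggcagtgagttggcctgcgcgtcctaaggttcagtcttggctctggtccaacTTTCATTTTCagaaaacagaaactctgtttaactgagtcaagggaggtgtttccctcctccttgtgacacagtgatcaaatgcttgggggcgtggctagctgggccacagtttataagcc
Cmpk2: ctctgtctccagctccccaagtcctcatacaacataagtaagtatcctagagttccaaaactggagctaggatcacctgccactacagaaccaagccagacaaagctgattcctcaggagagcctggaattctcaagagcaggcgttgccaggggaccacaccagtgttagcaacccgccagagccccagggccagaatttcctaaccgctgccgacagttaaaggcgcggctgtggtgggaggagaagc

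The ISRE core was present in 8 of the 37 promoters (21.6%), those of Isg15, Ifitm2, Bst2, Rsad2, Trim30a, Tdrd7, Slfn5 and Slfn8, against 936 of 27025 genes in the whole promoter table (3.46%). The GAS core was present in 2 of the 37 (5.41%), Bst2 and Samhd1, against 8.13% of all genes. Members with the ISRE core had a median log2 fold change of 2.94 in T against WT (range 0.31 to 3.89), and the 29 members without it had a median of 1.72 (range -0.38 to 3.33). The ranges overlap widely: Tdrd7 carries the core and differed least among the 8, whereas Ifi44 has no exact match and had the largest value among the 29. The Ifi44 sequence above does hold near matches on the opposite strand, such as ttttcgtttc, so a member without the core may still carry an ISRE.

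In T against WT, 44 of the 47 members rose, 1 fell and 2 did not pass the test, where a change was called at an adjusted p under 0.05 from edgeR's quasi-likelihood test with Benjamini-Hochberg adjustment over the 18565 genes tested. Among all genes tested, 13% were called higher and 11.2% lower. The median log2 fold change of the members was 2.0, against -0.01 over all genes. Called rises of at least 2-fold were found for 35 members (7.48% of all genes) and of at least 4-fold for 23 (3.09% of all genes). The exceptions were Adar, which fell, and Daxx and Pnpt1, which did not pass.

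The same 44 members had their lowest T library above their highest WT library, which 13.3% of all genes did. For 40 members the lowest T library was above all 12 libraries of the other genotypes, which held for 7% of all genes. The 7 members without that separation were Cmpk2, Trim21, Daxx, Adar, Pnpt1, Znfx1 and Tdrd7.

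In TCKO against T, 41 of the 47 members fell, none rose and 6 did not pass (8.05% of all genes fell). The median log2 fold change was -1.99, against 0.02 over all genes, and 36 called members fell at least 2-fold (4.98% of all genes). All TCKO libraries lay below all T libraries for 40 members (9.65% of all genes), and the opposite held for 0 (5.14% of all genes). Cmpk2, Trim21, Daxx, Adar, Pnpt1 and Tdrd7 did not pass. This comparison shares the 4 T libraries with the comparison of T with WT, so the 2 counts are not independent.

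**Figure D1:**
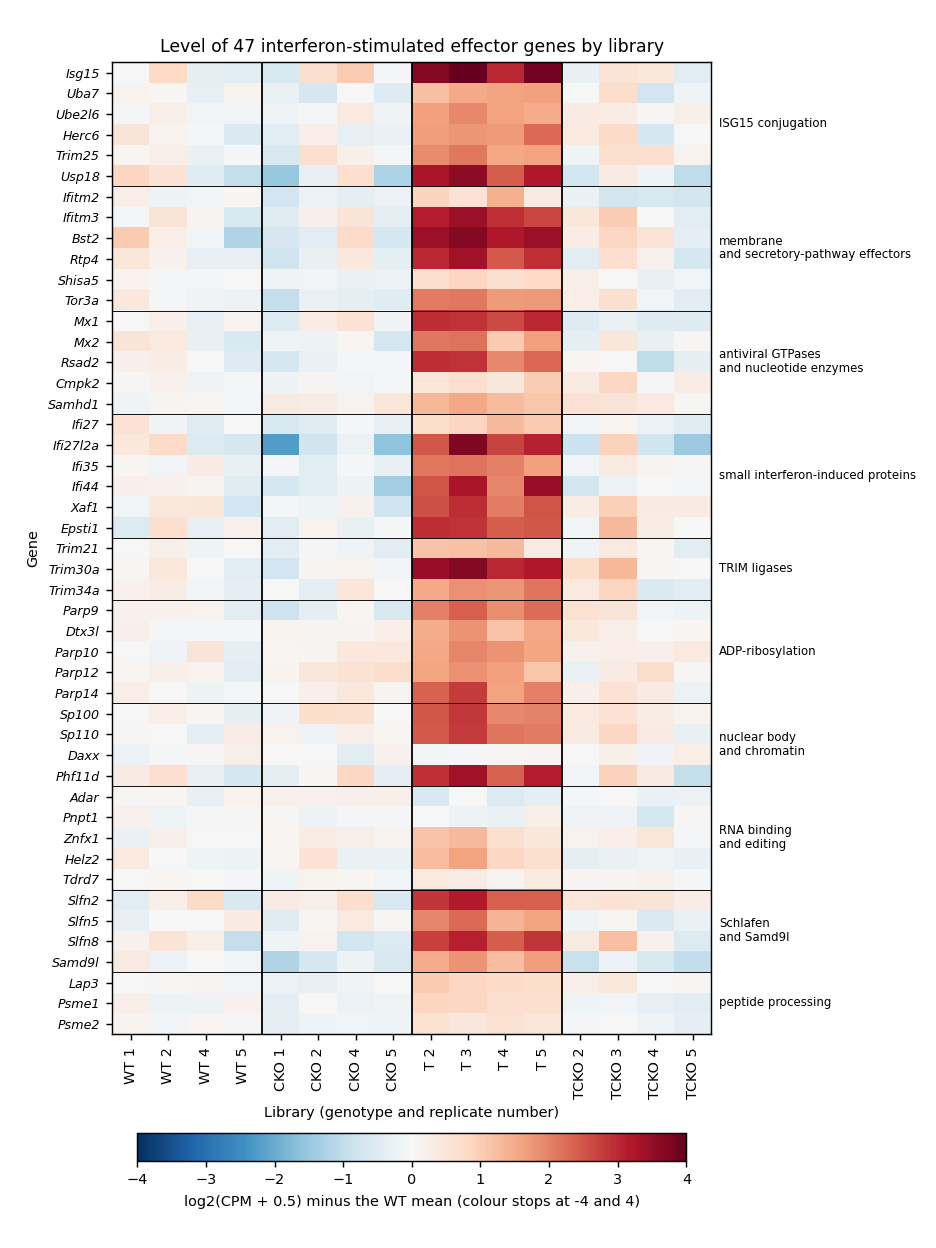
Level of each member (rows, grouped by role) in each of the 16 libraries (columns), as log2(CPM + 0.5) minus the mean of the WT libraries, with colour stops at -4 and 4. The 4 T libraries are the dark red block; Adar, Pnpt1, Daxx and Tdrd7 are pale in all columns.

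Bulk RNA does not distinguish fewer cells of a type from less RNA per cell. The summed level of 8 microglial markers was 423 to 580 CPM in WT, 472 to 505 CPM in CKO, 1444 to 1909 CPM in T and 563 to 923 CPM in TCKO, and none of the 8 was at 0 in any library. In T against WT 7 of the 8 rose, all but P2ry12, and in TCKO against T 6 fell. The mean sum was 3.32 times the WT value in T. On the same CPM scale, the ratio of group means exceeded 3.32 for 29 members and did not for 18.

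Other marker lists moved as well. Astrocyte markers summed to 2209 to 2787 CPM in WT, 7613 to 11013 CPM in T and 2345 to 5172 CPM in TCKO, with 4 of 6 higher in T against WT. Gfap carried most of the change in the sum, with a mean of 643 CPM in WT, 6533 CPM in T and 1641 CPM in TCKO. The mean sums of all 6 were 2461, 9424 and 3556 CPM. The 6 T cell markers summed to 2.05 to 2.41 CPM in WT, 7.07 to 13.1 CPM in T and 1.44 to 3.61 CPM in TCKO, with 5 of 6 higher in T against WT; Cd3d and Cd8a were each at 0 in 5 of the 16 libraries, Cd3e in 3 and Cd3g in 2. For border macrophages and monocytes 2 of 7 markers rose, and the sum went from 5.91 to 7.86 CPM in WT to 9.01 to 14.5 CPM in T. Neuronal markers summed to 5563 to 6272 CPM in WT, 3660 to 5326 CPM in T and 4632 to 7055 CPM in TCKO, with 2 of 6 lower in T against WT. Snap25 made up most of that sum, on average 4257 of 5862 CPM in WT and 3054 of 4295 CPM in T. Of 6 endothelial and pericyte markers 3 rose, with a mean sum 1.3 times that of WT in T and 0.992 times in TCKO. Of 6 oligodendrocyte markers 2 rose, with a mean sum 1.75 times that of WT in T and 1.6 times in TCKO, and WT ran from 3238 to 14534 CPM. Of 4 plasmacytoid dendritic cell markers 1 rose, 2 had too few reads to be tested, and the mean sum in T was 1.63 times that of WT. That sum was almost all Siglech, on average 20.4 of 20.8 CPM in WT and 33.2 of 34 CPM in T. It therefore does not show whether these cells changed. The part of these cell types in the members' changes was not tested.

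All 6 genes of the ISG15 conjugation system rose in T against WT and all 6 fell in TCKO against T. Isg15 is the ubiquitin-like modifier itself; Uba7 activates it, Ube2l6 conjugates it, Herc6 is the mouse ligase, Trim25 is an E3 ligase with a role in RNA sensing, and Usp18 removes the modifier and restrains receptor signalling. Isg15 stood at 2.23, 4.18, 1.58 and 1.45 CPM in WT 1, 2, 4 and 5, at 1.27, 3.71, 4.88 and 2.02 CPM in CKO 1, 2, 4 and 5, at 33.8, 47.4, 21.4 and 38.4 CPM in T 2, 3, 4 and 5, and at 1.69, 3.42, 3.11 and 1.52 CPM in TCKO 2, 3, 4 and 5. The lowest T library, T 4, was far above every other library, and WT, CKO and TCKO overlapped. Isg15 had a log2 fold change of 3.89 ± 0.43 (SE) in T against WT (adjusted p = 8.05e-06) and -3.84 ± 0.43 in TCKO against T (adjusted p = 3.69e-05).

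Libraries are given in the same order from here on: replicates 1, 2, 4 and 5 of WT and of CKO, and 2, 3, 4 and 5 of T and of TCKO. Ube2l6 had the smallest p of this system, with 10.1, 12.6, 9.76 and 9.64 CPM in WT, 9.5, 10, 13.8 and 9.48 CPM in CKO, 33.4, 41.3, 32.6 and 30.4 CPM in T, and 13.2, 12.9, 10.8 and 12.4 CPM in TCKO. The T libraries did not overlap any other group. This was a log2 fold change of 1.71 ± 0.15 in T against WT (adjusted p = 1.2e-06) and -1.48 ± 0.14 in TCKO against T (adjusted p = 1.53e-05). Usp18 averaged 8.53 ± 4.95 CPM (SD, n = 4) in WT, 71.2 ± 21.3 in T and 5.93 ± 2.69 in TCKO, a log2 fold change of 3.06 ± 0.51 in T against WT. Uba7, Herc6 and Trim25 rose by 1.72, 1.9 and 1.98 on the log2 scale.

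The 6 membrane and secretory-pathway effectors rose in T against WT and fell in TCKO against T, with a median log2 fold change of 2.49 and -2.27. Ifitm3, which blocks fusion of virus with endosomal membranes, was at 22.9, 34.1, 25.6 and 15.3 CPM in WT, 16.6, 27.2, 33.5 and 18 CPM in CKO, 213, 255, 182 and 151 CPM in T, and 32.6, 48, 23.1 and 17.5 CPM in TCKO. All 4 T libraries were above all others, and the highest of the rest was TCKO 3. Ifitm3 had a log2 fold change of 3.03 ± 0.32 in T against WT (adjusted p = 5.16e-06) and -2.72 ± 0.32 in TCKO against T (adjusted p = 4.29e-05).

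Per transcript length, Ifitm3 went from the sixth member in WT, with 57.8 ± 18.4 TPM (deposited values scaled for length and depth; SD, n = 4), to the first in T, with 485 ± 127 TPM. Its paralogue Ifitm2 was level with it in WT, at 59.8 ± 9.16 TPM, and reached 110 ± 33.3 TPM in T. The 2 genes are close in sequence, so reads could be shared between them and their split is uncertain. Ifitm2 rose by 0.87 on the log2 scale (adjusted p = 0.00555), and its highest libraries were WT 1 in WT and T 4 in T, the pair rich in choroid plexus markers. Without that pair the rise was 0.73 (adjusted p = 0.0172), and the fall in TCKO against T was -1.22 (adjusted p = 0.000443).

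Bst2, or tetherin, which holds budding virions at the cell surface, went from 5.64 ± 3.6 CPM in WT to 57.5 ± 7.72 CPM in T and 6.46 ± 2.3 CPM in TCKO. Rtp4, a zinc finger protein known to restrict flaviviruses, went from 6.39 ± 1.9 CPM to 52.2 ± 13.1 and 6.36 ± 2.97 CPM. Neither gene's T libraries overlapped those of WT or TCKO. Rtp4 overlaps Masp1 on the opposite strand, so its value is less certain. Tor3a, a torsin of the endoplasmic reticulum, rose by 1.96 and Shisa5, an endoplasmic reticulum protein linked to cell death, rose by 0.75 on the log2 scale.

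Of the 5 antiviral GTPases and nucleotide enzymes, 5 rose in T against WT and 4 fell in TCKO against T. Mx1 and Mx2 are dynamin-like GTPases that block viral replication, and both are annotated as polymorphic pseudogenes on this reference. Mx1 had 28 reads over the WT libraries, 22 over CKO, 585 over T and 3 over TCKO. It was at 5.03, 4.8, 4.0 and 5.34 CPM in T, at most 0.586 CPM in WT and CKO, and at 0 in TCKO except for 0.0951 CPM in TCKO 3.

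Summed over libraries and scaled by depth, Mx1 was 172 times higher in T than in TCKO (95% counting interval 58.5 to 836) and 8.15 times higher in WT than in TCKO (2.52 to 41.9). The intervals cover counting error only. Its log2 fold change of 4.36 ± 0.66 in T against WT passed the test (adjusted p = 0.000183). Mx2 rose from 0.575 ± 0.384 to 3.06 ± 1.16 CPM (SD, n = 4), a log2 fold change of 2.39.

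Rsad2 and Cmpk2 are neighbours on chromosome 12, start in opposite directions and differed in size of change. Rsad2, or viperin, makes a chain-terminating nucleotide, and Cmpk2 is a nucleotide kinase of mitochondria. Rsad2 was at 3.13, 3.32, 2.66 and 1.69 CPM in WT, 1.47, 2.11, 2.54 and 2.46 CPM in CKO, 23.9, 22.8, 11.3 and 15 CPM in T, and 2.78, 2.63, 1.04 and 1.87 CPM in TCKO. Its T libraries were above all others, and T 4 was the lowest of the 4.

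Cmpk2 was at 19.5, 21.1, 17 and 17.7 CPM in WT, 16.2, 20.1, 17.3 and 18 CPM in CKO, 26.6, 30.4, 26 and 38.8 CPM in T, and 24.4, 33.6, 17.9 and 23 CPM in TCKO. T was above WT in every library, but TCKO 3 lay within the T range. The log2 fold changes in T against WT were 2.75 ± 0.32 for Rsad2 (adjusted p = 1.2e-05) and 0.69 ± 0.17 for Cmpk2 (adjusted p = 0.00669). With TCKO compared with T, they were -3.13 ± 0.33 for Rsad2 (adjusted p = 2.58e-05) and -0.3 ± 0.17 for Cmpk2 (adjusted p = 0.256). Without TCKO 3 the Cmpk2 difference was -0.5 and passed (adjusted p = 0.0452).

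Samhd1, which degrades deoxynucleotides, had 4.36, 5.43, 5.26 and 4.8 CPM in WT, 6.47, 6.16, 5.47 and 7.05 CPM in CKO, 13.2, 15.4, 12.5 and 11.3 CPM in T, and 7.85, 7.35, 6.71 and 5.15 CPM in TCKO. All T libraries lay above the rest, and every CKO library lay above every WT library by a small margin. Samhd1 had a log2 fold change of 1.4 ± 0.16 in T against WT (adjusted p = 8.3e-06) and -0.95 ± 0.15 in TCKO against T (adjusted p = 0.000566).

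All 6 small interferon-induced proteins rose in T and fell in TCKO against T. Ifi27 is a mitochondrial protein tied to apoptosis and was the most abundant member in WT per length, at 144 ± 47.9 TPM. It was at 123, 75.6, 59.5 and 84.2 CPM in WT, 53.5, 58.6, 80.1 and 65.8 CPM in CKO, 133, 150, 204 and 171 CPM in T, and 77.4, 87.7, 70.2 and 59.4 CPM in TCKO. The lowest T library was above WT 1 by a small margin, and the highest of each of these groups, WT 1 and T 4, was the library rich in choroid plexus markers. The log2 fold change was 0.94 ± 0.2 in T against WT (adjusted p = 0.00258) and 1.07 without that pair (adjusted p = 0.00103).

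Ifi35, which binds the N-myc interactor and acts in inflammatory signalling, had 6.62, 5.72, 7.81 and 4.94 CPM in WT, 5.94, 4.48, 5.99 and 4.96 CPM in CKO, 28.4, 29.9, 26.3 and 20.2 CPM in T, and 5.68, 8.17, 6.71 and 6.36 CPM in TCKO. WT, CKO and TCKO shared one range, with T apart. Its log2 fold change was 2.06 ± 0.17 in T against WT (adjusted p = 1.2e-06) and -1.96 ± 0.17 in TCKO against T, the smallest adjusted p of any member in that comparison (9.62e-06). Ifi27l2a (3.16), Ifi44 (3.33), Xaf1 (2.58), an antagonist of apoptosis inhibitors, and Epsti1 (3.15) had larger log2 fold changes in T against WT than Ifi27, and all 4 passed. Ifi27 and Ifi27l2a lie side by side on chromosome 12 and are related in sequence.

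The 3 TRIM ligases rose in T. Trim30a, which dampens Toll-like receptor signalling, was at 2.65, 3.56, 2.48 and 1.77 CPM in WT, 1.31, 2.8, 2.86 and 2.35 CPM in CKO, 33.7, 38.6, 23.9 and 27.6 CPM in T, and 4.51, 7.16, 2.67 and 2.54 CPM in TCKO. T was apart from the rest, and TCKO 2 and TCKO 3 were above every WT and CKO library. Trim30a had a log2 fold change of 3.56 ± 0.33 in T against WT (adjusted p = 2.38e-06) and -2.87 ± 0.32 in TCKO against T (adjusted p = 3.69e-05). Trim30a and Trim34a belong to a cluster of similar genes on chromosome 7, where shared reads make single values uncertain.

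Trim21, an intracellular antibody receptor, was near the detection limit, with 0.194, 0.297, 0.108 and 0.177 CPM in WT, 0, 0.172, 0.13 and 0 CPM in CKO, 1.02, 1.06, 1.18 and 0.375 CPM in T, and 0.13, 0.412, 0.222 and 0 CPM in TCKO. T 5 lay below TCKO 3, so T and TCKO overlapped. The log2 fold change of 2.19 ± 0.75 in T against WT (adjusted p = 0.0429) lost its call when any of 10 libraries was left out, with an adjusted p of 0.103 without WT 4. Fitted with replicate numbers as a block, it was 1.64 (adjusted p = 0.166), and without the pair of libraries rich in choroid plexus markers 2.05 (adjusted p = 0.147). Between TCKO and T the log2 fold change of Trim21 was -2.18 ± 0.76 (adjusted p = 0.0673) with edgeR. DESeq2 (-2.24) and limma voom (-2.61) called this fall, at an adjusted p of 0.0348 each. With edgeR it was -2.91 without TCKO 3 (adjusted p = 0.0384) and -2.44 without T 5 (adjusted p = 0.0437). With replicate numbers as a block it was -2.42 (adjusted p = 0.0425).

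The 5 genes of ADP-ribosylation rose in T and fell in TCKO against T. Parp9 and Dtx3l form a complex in which Dtx3l is a ubiquitin ligase, and Parp10, Parp12 and Parp14 add single ADP-ribose units to proteins. Parp9 was at 4.62, 4.66, 4.54 and 2.82 CPM in WT, 2.09, 2.97, 4.29 and 2.42 CPM in CKO, 17.9, 23.7, 16.2 and 21.2 CPM in T, and 6.55, 6.11, 3.71 and 3.47 CPM in TCKO. Dtx3l was at 8.49, 6.91, 6.98 and 6.88 CPM in WT, 8.03, 7.89, 7.94 and 8.78 CPM in CKO, 21.5, 26.8, 16.8 and 22.4 CPM in T, and 9.85, 8.68, 7.45 and 7.76 CPM in TCKO. In both genes every T library was above all others, and T 3 was the highest and T 4 the lowest.

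The log2 fold change in T against WT was 2.24 ± 0.26 for Parp9 (adjusted p = 1.1e-05) and 1.58 ± 0.15 for Dtx3l (adjusted p = 1.92e-06). In TCKO against T it was -1.99 ± 0.26 for Parp9 (adjusted p = 8.17e-05) and -1.37 ± 0.14 for Dtx3l (adjusted p = 2.58e-05). The 2 genes overlap at their 5′ ends on opposite strands of chromosome 16, so that a part of their reads may not be assigned with certainty. Parp10 lies within the region of Plec, a far more abundant gene, and its value is less certain for that reason. Parp10, Parp12 and Parp14 rose by 2.09, 1.77 and 2.74 on the log2 scale.

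Of the 4 nuclear body and chromatin genes, Sp100, Sp110 and Phf11d rose and Daxx did not pass. Sp100, a component of PML nuclear bodies, was at 3.36, 4.15, 3.6 and 2.51 CPM in WT, 3.03, 5.78, 5.53 and 3.42 CPM in CKO, 21.3, 26.9, 14 and 14.9 CPM in T, and 4.55, 5.29, 4.19 and 3.78 CPM in TCKO. Again T lay apart from the other 3 groups. For Sp100 the log2 fold change was 2.5 ± 0.26 in T against WT (adjusted p = 4.23e-06) and -2.11 ± 0.25 in TCKO against T (adjusted p = 5.11e-05).

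Daxx, a histone chaperone of the same bodies, was at 27.4, 31.7, 33.7 and 37.9 CPM in WT, 32.3, 32.2, 24 and 36.6 CPM in CKO, 29.8, 30.7, 33.2 and 35.2 CPM in T, and 33, 37.3, 29.5 and 39.1 CPM in TCKO. All 4 groups overlapped. The log2 difference was -0.02 ± 0.13 in T against WT (adjusted p = 0.939) and 0.11 ± 0.13 in TCKO against T (adjusted p = 0.638). Sp110 rose by 2.75 and Phf11d, a PHD finger gene with close paralogues, by 3.27 on the log2 scale.

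RNA binding and editing was the role with the most mixed result: Znfx1, Helz2 and Tdrd7 rose in T, Adar fell and Pnpt1 did not pass, and in TCKO against T only Znfx1 and Helz2 fell. Adar edits adenosine in double-stranded RNA and has an interferon-induced isoform, which gene totals do not separate from the other. It was at 65.7, 67, 51.6 and 69.9 CPM in WT, 71.4, 71, 72.9 and 72.7 CPM in CKO, 40.6, 64.1, 42.8 and 47.6 CPM in T, and 59.6, 63.2, 52.1 and 53.1 CPM in TCKO. T 3 lay among the WT libraries and the other T libraries lay below them. The log2 fold change was -0.38 ± 0.13 in T against WT (adjusted p = 0.0415).

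That call on Adar was lost when any of 12 libraries was left out, with an adjusted p of 0.143 and a value of -0.3 without T 2, and without the pair rich in choroid plexus markers (-0.29, adjusted p = 0.245). Adar overlaps the neuronal gene Chrnb2 on the opposite strand. Between TCKO and T the difference was 0.23 ± 0.13 (adjusted p = 0.275).

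Znfx1, a helicase that senses double-stranded RNA, was at 14.8, 20.7, 18.2 and 18.2 CPM in WT, 19, 22.1, 21.3 and 19.9 CPM in CKO, 40.2, 44.4, 28.1 and 24.9 CPM in T, and 19.9, 21.5, 25.1 and 16.9 CPM in TCKO. T was above WT throughout, while TCKO 4 was just above T 5. Its log2 fold change was 0.93 ± 0.17 in T against WT (adjusted p = 0.000984) and -0.72 ± 0.17 in TCKO against T (adjusted p = 0.0107). A fit to the T and TCKO libraries alone gave the second as -0.73 (adjusted p = 0.0506). Znfx1 overlaps the noncoding gene Zfas1 on the opposite strand.

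Pnpt1, a mitochondrial RNA exonuclease, was at 19.7, 15.5, 17.1 and 18 CPM in WT, 18.1, 15.3, 16.8 and 17.1 CPM in CKO, 17.3, 15, 14.4 and 20.8 CPM in T, and 15.9, 15.7, 10.6 and 18.3 CPM in TCKO. All groups overlapped, and its log2 difference was -0.06 ± 0.15 in T against WT (adjusted p = 0.833). Tdrd7, a Tudor protein of RNA granules, was at 14.6, 15.5, 14.7 and 14.3 CPM in WT, 13.1, 16.3, 15.6 and 13.6 CPM in CKO, 19.5, 18.1, 16 and 19.7 CPM in T, and 15.9, 16, 16.7 and 14 CPM in TCKO. T 4 was close to the highest WT library and below 1 TCKO library. The log2 fold change of Tdrd7 was 0.31 ± 0.11 in T against WT (adjusted p = 0.0415) and -0.23 ± 0.11 in TCKO against T (adjusted p = 0.171). Its first call was lost when any of 8 libraries was left out, with an adjusted p of 0.12 without T 2. That call was also lost with replicate numbers as a block (0.28, adjusted p = 0.128) and without the choroid-rich pair (0.39, adjusted p = 0.0501). Helz2, a helicase and nuclear coactivator, rose by 1.5 on the log2 scale from a low level of 0.812 ± 0.262 CPM (SD, n = 4) in WT.

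The 3 Schlafen genes and Samd9l, which restrict translation in virus-infected cells or cell growth, rose in T and fell in TCKO against T. Slfn2, needed for quiescence of T cells and monocytes, was at 3.33, 5.75, 8.5 and 2.9 CPM in WT, 6.02, 5.78, 7.94 and 2.87 CPM in CKO, 37.1, 46.6, 26.6 and 26.9 CPM in T, and 6.72, 7.29, 6.97 and 5.93 CPM in TCKO. T was apart from the other groups, which overlapped. Its log2 fold change was 2.75 ± 0.33 in T against WT (adjusted p = 1.66e-05) and -2.35 ± 0.32 in TCKO against T (adjusted p = 0.000157). Slfn5, Slfn8 and Samd9l rose by 1.97, 3.14 and 1.64 on the log2 scale. The Schlafen genes lie in a cluster of similar copies on chromosome 11, so their separate values are uncertain.

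The 3 peptide processing genes had small and even changes. Psme1 and Psme2 encode the subunits of the PA28 proteasome activator and Lap3 is an aminopeptidase that trims peptides. Psme2 was at 54.5, 47.2, 53.6 and 48.8 CPM in WT, 39.9, 46, 47.6 and 45 CPM in CKO, 77.7, 69.8, 77.7 and 72.2 CPM in T, and 49.2, 50.9, 46.5 and 39.4 CPM in TCKO. Lap3 was at 80.9, 83.6, 87.2 and 74.7 CPM in WT, 69.3, 64.5, 74.5 and 80.9 CPM in CKO, 169, 145, 140 and 132 CPM in T, and 95.4, 109, 83.1 and 84.2 CPM in TCKO. In both genes T was above every other library with little spread within it.

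The log2 fold change in T against WT was 0.54 ± 0.09 for Psme2 (adjusted p = 0.000535), 0.84 ± 0.11 for Lap3 (adjusted p = 3.02e-05) and 0.75 ± 0.12 for Psme1 (adjusted p = 0.000288). Between TCKO and T it was -0.68 ± 0.09 for Psme2 (adjusted p = 0.000163), -0.66 ± 0.11 for Lap3 (adjusted p = 0.000583) and -1.02 ± 0.12 for Psme1 (adjusted p = 5.1e-05). Psme1 overlaps Emc9 on the opposite strand.

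**Figure D2:**
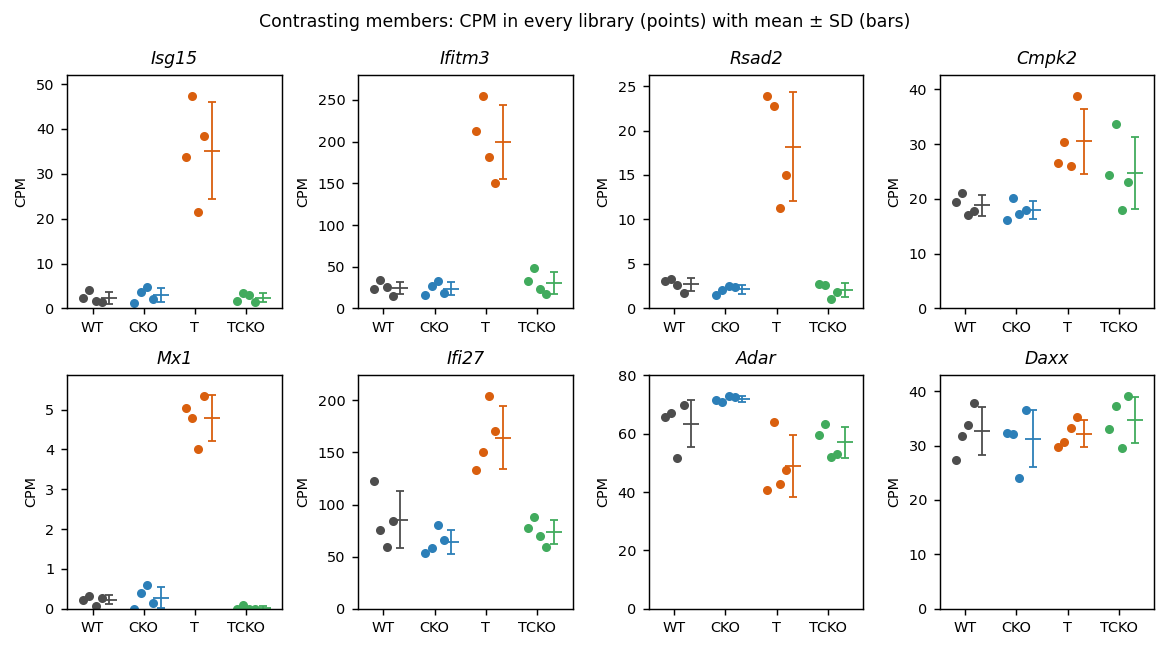
CPM of 8 members in every library (points) with the group mean ± SD beside them (bars), 4 libraries per genotype, on linear axes from 0. T stands apart in Isg15, Ifitm3, Rsad2 and Mx1 and least so in Ifi27, where the lowest T value is 133 and the highest WT value 123; T and TCKO overlap in Cmpk2, T falls in Adar except for T 3, and all groups overlap in Daxx.

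Ch25h loss alone changed no member by the test. In CKO against WT 0 of 47 members passed with edgeR, DESeq2 or limma voom, and 0.0108% of all genes did with edgeR. At an unadjusted p under 0.05 there were 5 members, against 11.3% of all genes, which is near the members' share. The smallest adjusted p was 0.331, that of Samd9l (log2 difference -0.77). The others were Samhd1 (0.34), Tor3a (-0.57), Ifi27l2a (-1.66) and Ifi44 (-1.08). The median log2 difference was -0.17, against -0.01 over all genes, with 30 members below 0 and 17 above. The members' median was -0.07 without WT 2, -0.09 without WT 1 and -0.1 without CKO 1. The groups did not overlap for 2 members with higher CKO values (4.88% of all genes) and 3 with lower ones (4.06% of all genes). On CPM of the unscaled library total these counts were 2 and 0, and on TPM 3 and 0, so the lower ones were seen on the TMM scale alone of the 3.

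The tau transgene on the Ch25h knockout also changed no member by edgeR. In TCKO against CKO 0 of 47 passed, while 0.539% of all genes did, 0.35% as higher and 0.189% as lower. At an unadjusted p under 0.05 there were 8 members, near the share of 17.5% among all genes. The smallest adjusted p was 0.107, that of Lap3 (0.36 ± 0.11). The median log2 difference was 0.16, against 0.01 over all genes, with 36 members above 0. It was 0.36 without CKO 4, 0.29 without TCKO 5 and 0.1 without TCKO 3. The other 7 were Parp9 (0.77), Trim30a (0.87), Cmpk2 (0.47), Tor3a (0.7), Xaf1 (0.76), Mx1 (-3.06) and Adar (-0.34). DESeq2 called 2 of the 46 members it tested, Lap3 (0.37, adjusted p = 0.0394) and Mx1 (-3.26, adjusted p = 0.037). Over all 17448 genes that it tested, DESeq2 called 507 higher and 280 lower. With limma voom 0 members passed. No overlap was seen for 2 members with higher TCKO values (5.32% of all genes) and 1 with lower values (4.93% of all genes).

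**Figure D3:**
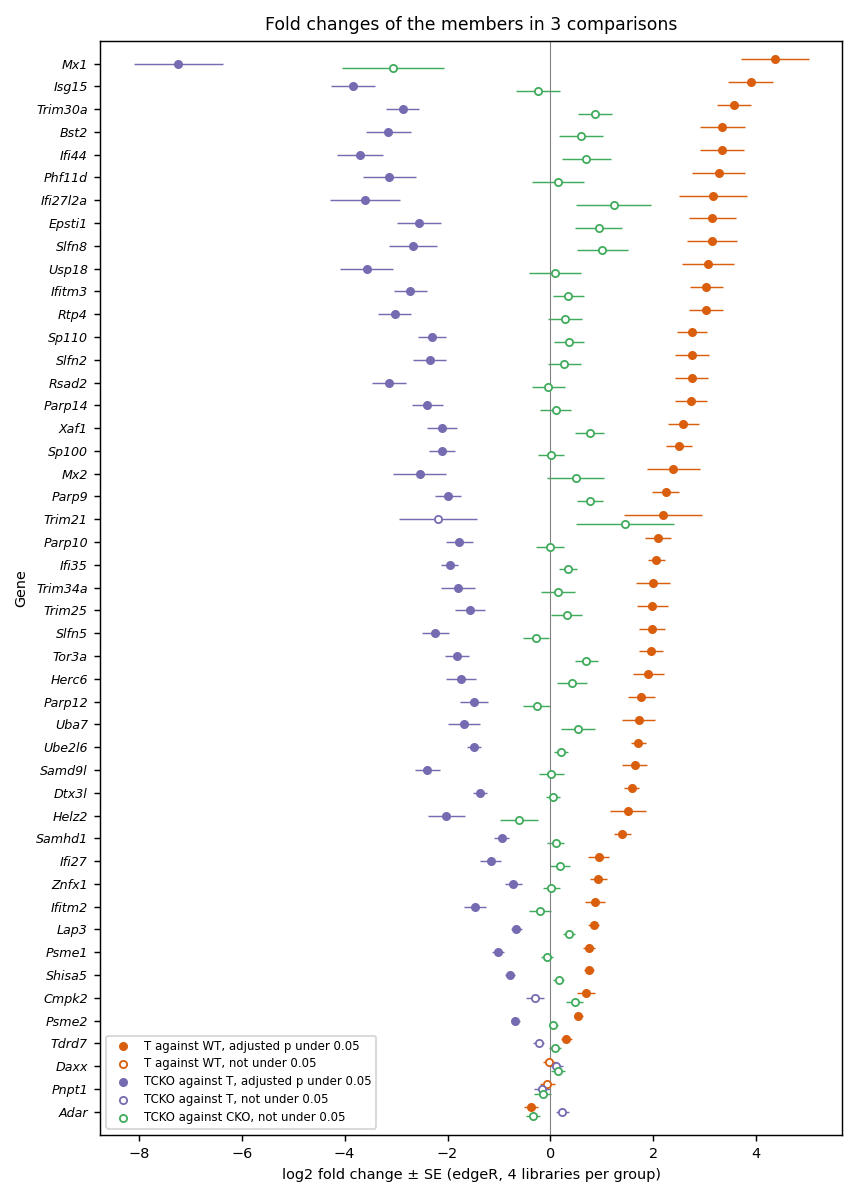
Log2 fold change ± SE of each member in T against WT (orange), TCKO against T (purple) and TCKO against CKO (green), from edgeR with 4 libraries per group; filled points have an adjusted p under 0.05 and members are sorted by the value in T against WT. Orange points lie right of 0 for 44 members, purple points left of 0 for 45, and green points are open throughout; the Mx1 values that involve TCKO rest on 3 reads in that group.

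The difference between the 2 transgene effects was tested as an interaction, that is TCKO against CKO minus T against WT. It passed for 30 of 47 members, all with a smaller effect on the knockout, and 2.45% of all genes passed in that direction. The median was -1.82, against 0.03 over all genes. At an unadjusted p under 0.05 there were 40 members, against 18.8% of all genes. Of the cell type markers, 6 of 8 microglial (median -1.08), 2 of 6 astrocyte (median -0.68) and 1 of 6 endothelial and pericyte markers (median -0.46) also passed the interaction as lower; their part in the members' values was not tested. The interaction was -4.13 ± 0.59 for Isg15 (adjusted p = 0.00245), -1.53 ± 0.2 for Dtx3l (adjusted p = 0.0016) and -1.5 ± 0.2 for Ube2l6 (adjusted p = 0.00164).

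By role, all 5 genes of ADP-ribosylation passed, 5 of 6 membrane effectors, 4 of 6 genes of ISG15 conjugation, 3 of 4 nuclear body genes and 1 of 5 of RNA binding and editing, Helz2. Ifi27l2a (-1.93, adjusted p = 0.303), Slfn8 (-2.12, adjusted p = 0.0929) and Epsti1 (-2.2, adjusted p = 0.066) had values as large as many that passed, but did not pass. Their standard errors were 0.97, 0.67 and 0.63, and for each of them TCKO 3 was the highest TCKO library. Without TCKO 3, Slfn8 (-2.69, adjusted p = 0.0296) and Epsti1 (-2.82, adjusted p = 0.0104) passed.

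Leaving out single libraries gave 20 to 35 interaction calls, with 20 each without CKO 4, the shallowest library, and without T 3. The call held in every such fit for 19 members: Isg15, Ube2l6, Ifitm3, Rtp4, Mx1, Rsad2, Samhd1, Ifi35, Trim30a, Dtx3l, Parp10, Parp12, Parp14, Sp100, Sp110, Slfn2, Slfn5, Samd9l and Psme1. It was lost in at least 1 fit for the other 11, namely Bst2 (adjusted p = 0.0519 without CKO 4), Usp18 (0.0726 without CKO 4), Phf11d (0.0651 without CKO 4), Xaf1 (0.0563 without CKO 4), Parp9 (0.0779 without CKO 4), Trim34a (0.0928 without CKO 4), Ifi44, Helz2, Trim25 and Tor3a (0.0831, 0.0831, 0.0932 and 0.103 without CKO 2) and Shisa5 (0.0865 without T 3). Without the choroid-rich pair 26 members passed; Trim25 (-1.76, adjusted p = 0.0622), Shisa5 (-0.65, adjusted p = 0.0678), Trim34a (-1.92, adjusted p = 0.0805) and Parp9 (-1.59, adjusted p = 0.0574) did not. With replicate numbers as a block 32 passed: Ifi44 lost the call (-2.63, adjusted p = 0.0624), and Epsti1 (-2.41, adjusted p = 0.0175), Slfn8 (-2.4, adjusted p = 0.0384) and Znfx1 (-0.9, adjusted p = 0.0326) gained it.

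**Figure D4:**
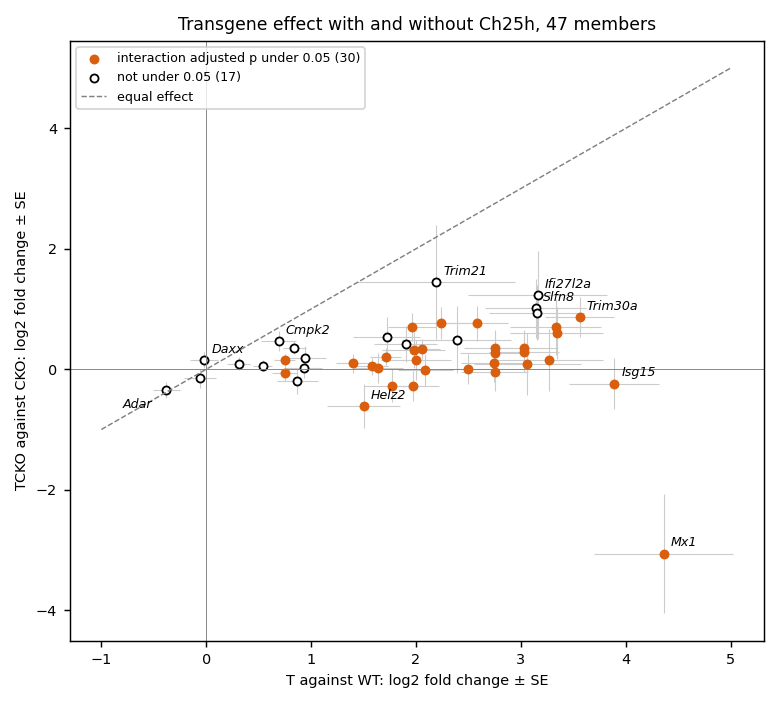
Log2 fold change ± SE in T against WT (horizontal axis) and in TCKO against CKO (vertical axis) for the 47 members; the dashed line marks equal effects, and filled points passed the interaction test. The 30 filled points lie below the dashed line; Trim21 lies near it with wide error bars, and Mx1 lies lowest with its vertical value resting on 3 TCKO reads.

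Levels between members were compared per length. In T the 6 most abundant members after Ifitm3 (485 ± 127 TPM, SD, n = 4) and Ifi27 (275 ± 45.9 TPM) were Psme2 (151 ± 2.97 TPM), Bst2 (123 ± 23.9 TPM), Psme1 (111 ± 13.7 TPM), Shisa5 (110 ± 15.7 TPM), Ifitm2 (110 ± 33.3 TPM) and Ifi27l2a (99 ± 46.7 TPM). From Bst2 to Ifi27l2a neighbours in this order differed by less than their SD. Isg15 moved from rank 20 in WT (5.49 ± 2.97 TPM) to rank 10 in T (85.1 ± 30.1 TPM), and Adar from rank 9 (14.3 ± 2.47 TPM) to rank 24 (10.9 ± 2.79 TPM). Helz2 was the least abundant member in both, at 0.107 ± 0.0396 and 0.3 ± 0.124 TPM.

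The same libraries were often the highest or lowest of their group. T 3 held the highest T value for 30 of 47 members and T 4 the lowest for 27. The median over members of log2(CPM + 0.5) minus the WT mean was 1.88, 2.1, 1.63 and 1.64 in T 2, T 3, T 4 and T 5. T 3 had the lowest microglial marker sum of the T libraries (1444 CPM) and the highest T cell marker sum (13.1 CPM). In TCKO, TCKO 3 held the highest value for 31 members and TCKO 5 the lowest for 24, with medians of 0.42 and -0.21. CKO 4, the library with the fewest reads, held the highest CKO value for 27 members, and CKO 1 the lowest for 27. WT 5 held the lowest WT value for 27 members.

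The spread between libraries was similar across groups, with a median coefficient of variation over members of 23.7% (WT), 27.1% (CKO), 21.0% (T) and 30.8% (TCKO). By the median over members, the 4 T libraries lay at 1.63 or above, and the other 12 lay between -0.28 and 0.42.

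Genes that signal upstream of the members were read from a separate list of 24 interferons, receptors, kinases and transcription factors, of which 12 had enough reads to be tested. In T against WT 7 of the 12 rose, none fell and 5 did not pass, while 13% of all genes rose and 11.2% fell. The receptor chains that rose were Ifnar2 (1.03 ± 0.11), Ifngr1 (1.09 ± 0.14) and Il10rb (1.36 ± 0.14). The transcription factors that rose were Stat2 (0.91 ± 0.15), Irf1 (1.37 ± 0.18), Irf7 (3.33 ± 0.44) and Irf9 (2.38 ± 0.3). Ifnar1 (0.07), Ifngr2 (0.04), Jak1 (-0.2), Jak2 (0.56) and Tyk2 (0.04) did not pass. In TCKO against T 7 of the 12 fell (8.05% of all genes), among them Irf7 (-3.37 ± 0.44) and Irf9 (-2.02 ± 0.3), and none rose.

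Irf7, the factor that amplifies interferon transcription, was at 5.07, 5.07, 2.12 and 1.87 CPM in WT, 1.6, 3.53, 3.97 and 1.76 CPM in CKO, 33.9, 50.4, 22.3 and 36.8 CPM in T, and 1.95, 6.72, 2.41 and 2.69 CPM in TCKO. T 4 was the lowest T library for Irf7 and still above the other groups, which overlapped. The interaction passed for 6 of the 12, all lower (2.45% of all genes): Irf1, Ifngr1, Il10rb, Ifnar2, Irf7 and Stat2. It passed for 2 without WT 5, T 2 or TCKO 5, or without the pair rich in choroid plexus markers, and for 3 without CKO 2, CKO 4 or T 4. The adjusted p rose to 0.113 for Ifngr1 and 0.0703 for Ifnar2 without T 2, to 0.106 for Irf1 without CKO 2, and to 0.0554 for Il10rb without WT 5. Without the choroid-rich pair Ifnar2 (adjusted p = 0.0766), Ifngr1 (0.142), Il10rb (0.0654) and Irf1 (0.0973) did not pass. With replicate numbers as a block Ifnar2 (-0.66) and Ifngr1 (-0.75) did not pass, at an adjusted p of 0.0512 each, and Irf9 did (-1.63, adjusted p = 0.0454).

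The interferons themselves had almost no reads. Ifnb1 had 4 reads in WT, all in WT 1, and 11 in T, with 3 in T 3 and 8 in T 5, and 0 in CKO and TCKO. Ifng had 1, 2, 0 and 1 reads in the T libraries and 3 reads over TCKO. Ifna2 had 3 reads, all in TCKO 3, and Ifnk had 2 in WT 1 and 1 in TCKO 2. The receptor chain Ifnlr1 had 8 reads over WT, all in WT 1, 2 over CKO, 33 over T and 3 over TCKO, too few to be tested. Ifna1, Ifna4, Ifna5, Ifna13, Ifne, Ifnl2 and Ifnl3 had 0 reads in all 16 libraries. No gene of this paragraph was tested, so these counts do not show whether the genotypes differ.

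Ch25h lies on chromosome 19, and no member does, so no member is a neighbour of the knocked-out gene.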

How the data were processed

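RNA from 16 hippocampal samples was sequenced after cDNA was made with an oligo-dT primed SMARTer Ultra Low kit (per the labels). The submitters' processing notes name bcl2fastq, STAR 2.5.1a, Subread, featureCounts 1.4.6-p5 and build GRCm38, without roles; the counting tool and its annotation are not given in the sources used here. Values as deposited are estimated counts (expected counts, 74.53% of those above 0 whole) and, per the file headers, TPM with an effective length per gene. Of 55774 lines, 287 repeated a gene, and each gene was kept once. Gene positions are those of GENCODE M21 (GRCm38), matched on Ensembl identifiers.

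Estimated counts were rounded and tested with edgeR 4.0.16 (R 4.3.3): TMM scaling, filterByExpr and quasi-likelihood F-tests over all 16 libraries with a mean per genotype, with Benjamini-Hochberg adjustment over 18565 genes and a threshold of 0.05. CPM use TMM-scaled totals. DESeq2 1.42.0, limma 3.58.1 voom, other scalings and filters and left-out libraries were alternatives. On simulated counts for T against WT (18238 genes), 23.9%, 58.2% and 86.4% of genes changed 1.5-, 2- and 4-fold were recovered. The simulation changed 200 genes, whereas 24.2% of genes were called in the data, so these rates may not hold for the real comparison. The printed values come from the fit without a replicate block. A fit with replicate numbers as a block was an alternative, and its value is given where it changes a call. Deviations of same-numbered libraries from their group means had correlations of 0.12, 0.14 and 0.3 between WT and T. These were 0.1, 0.14 and 0.14 between CKO and T, and -0.14 to 0.17 between T and TCKO. Differently numbered libraries were not compared, so the correlations do not show whether the numbers mark pairs. The members, roles and lists were chosen with earlier results of these data known. All members are named; library values are given for those that the role's highest mean TPM, the smallest p in T against WT, or a missed threshold in the first 2 comparisons selects, and for Rsad2, Mx1 and Irf7, which were picked after their values were seen. A further signalling gene, outside the 24 listed, is not reported here.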

Additional observations from a re-analysis of the deposited data

Results flagged for a closer look

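In 10 of the 188 groups of 4 libraries (each member in each genotype), 1 library lay far from the other 3 on the log2(CPM + 0.5) scale. Chance flags about 1 in 20 such groups, or 9.4 here. The libraries were Uba7 in WT 4 (lowest, 1.33 CPM), Ube2l6 in CKO 4 (highest, 13.8 CPM), Herc6 in T 5 (highest, 28.9 CPM), Mx1 in TCKO 3 (highest, 0.0951 CPM, the group's only reads), Ifi44 in WT 5 (lowest, 0.706 CPM), Xaf1 in TCKO 3 (highest, 11.4 CPM), Trim21 in T 5 (lowest, 0.375 CPM), Parp9 in WT 5 (lowest, 2.82 CPM), Dtx3l in WT 1 (highest, 8.49 CPM) and Dtx3l in CKO 5 (highest, 8.78 CPM).

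For 30 members the effect of the transgene differed with and without Ch25h by edgeR's interaction test, and in each it was smaller on the knockout. The log2 differences between the 2 effects, from the largest, were Mx1 (-7.42), Isg15 (-4.13), Phf11d (-3.12), Usp18 (-2.97), Rsad2 (-2.79), Rtp4 (-2.75), Bst2 (-2.74), Trim30a (-2.69), Ifitm3 (-2.68), Parp14 (-2.64), Ifi44 (-2.62), Slfn2 (-2.48), Sp100 (-2.48), Sp110 (-2.39), Slfn5 (-2.24). The others were Helz2 (-2.11), Parp10 (-2.1), Parp12 (-2.04), Trim34a (-1.84), Xaf1 (-1.82), Ifi35 (-1.72), Trim25 (-1.67), Samd9l (-1.62), Dtx3l (-1.53), Ube2l6 (-1.5), Parp9 (-1.48), Samhd1 (-1.3), Tor3a (-1.25), Psme1 (-0.82), Shisa5 (-0.59). The Mx1 value depends on 3 reads in TCKO. In the interferon signalling list the differences were Irf7 (-2.95), Stat2 (-1.15), Irf1 (-0.98), Il10rb (-0.89), Ifngr1 (-0.74), Ifnar2 (-0.68). The adjusted p-values ran from 0.0016 (Dtx3l) to 0.0498 (Ifngr1), and without single libraries the number of signalling genes that passed was 2 to 6.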

How the results depend on the processing

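In T against WT, 42 of the 45 called members passed under every alternative; the exceptions were Trim21, Adar and Tdrd7. The number of called members was 42 to 45 with single libraries left out. In TCKO against T it was 41 to 43, and 40 of the 41 called members passed under every alternative, Znfx1 being the exception. It was 0 throughout in CKO against WT. In TCKO against CKO it was 0 with single libraries left out and 2 with DESeq2, which called 507 higher and 280 lower of 17448 genes. The cause of that difference between the tools was not tested. The interaction gave 20 to 35 members with single libraries left out and 26 without the choroid-rich pair (an alternative chosen after seeing the data). It gave 26 with limma voom, where Trim25, Tor3a, Ifi44 and Helz2 lost the call, and 37 of 46 tested with DESeq2. Among all genes, limma voom called 113 higher and 431 lower of 18565, and DESeq2 403 higher and 860 lower of 17448. With replicate numbers as a block, 43 members passed in T against WT, 42 in TCKO against T and 32 in the interaction; Trim21 and Tdrd7 lost their call in T against WT and no other member's call in that comparison changed. Of the interferon signalling genes 6 passed the interaction, 2 to 6 with single libraries left out and 2 without the choroid-rich pair. Over the values of members and signalling genes under all settings, 6462 kept direction and side of the threshold, 185 lost the call, 57 gained it and 0 reversed a called direction; 136 uncalled values changed sign. In TCKO against CKO the median went from 0.16 to 0.36 without CKO 4, and in the interaction from -1.82 to -2.04 without TCKO 3. On unscaled CPM 2 members, and on TPM 3, did not overlap in CKO against WT, against 5 on the TMM scale. Depth limits Trim21, Mx1, Mx2 and Helz2 most, since these have few reads.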
